A study of Mus musculus with 12 samples.

Results

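ND13(N51S) is the leukemia-associated fusion of the nucleoporin NUP98 with the homeodomain protein HOXD13, carrying the mutation N51S, which the study presumes to remove the DNA binding of the homeodomain. Its expression profile was set against that of the empty GFP vector, with 3 arrays in each group, which are 6 of the 12 arrays of the series; they were chosen by their titles and taken in pairs by replicate number. All arrays measured RNA of primary bone marrow cells of (C57Bl/6Ly-Pep3b×C3H/HeJ) F1 mice that had received 5-fluorouracil (150 mg/kg) 4 days before harvest. The cells were prestimulated for 48 hours with interleukin-6, interleukin-3 and stem cell factor, transduced for 2 days on irradiated GP+E86 virus producer cells, and sorted 24 hours later for GFP and Sca-1, leaving out cells with the T cell antigens CD4, CD5 or CD8, the B cell antigen B220, the erythroid antigen Ter-119 or the granulocyte antigen Gr-1. Both groups carried an MSCV retrovirus with an IRES-GFP cassette, without an insert in the GFP control and with the mutant fusion in ND13(N51S); the other 6 arrays, used for the error estimate and for a closing comparison, carried intact ND13 or NA10 (NUP98-HOXA10). The sorted cells were a polyclonal, short-term culture, so each value is a mean over the cells of 1 sort.

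HOX proteins are transcription factors that read DNA through the homeodomain, whose recognition helix places an asparagine against an adenine of the TAAT core; in N51S a serine takes its place. NUP98 fusions keep the NUP98 repeats, which bind coactivators, and the homeodomain of the HOX partner, and such fusions block differentiation of myeloid cells and cause leukemia. As far as the mutant fusion cannot bind DNA, which was not measured here, it shows which transcripts differ from the vector control without the contact made by that helix.

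The values were MAS5 signals scaled to the same trimmed mean on every array, and a level at or below that of the bacterial control probe sets (28.5 to 69.8, by array) was taken as background. ND13(N51S) replicate 2 stood apart: its Gapdh control probe sets had a 3'-to-5' ratio of 48.9 against 1.90 to 2.71 on the other 11 arrays, and that of beta-actin 9.09 against 1.72 to 2.38. It also had the lowest array weight (0.242) and correlated less with the other 5 arrays of the comparison (r across probe sets 0.886 to 0.901) than those did with each other (0.912 to 0.930). Values without it are therefore given beside those with it. The experiment record deposited with GFP control replicate 1 describes Sca+ GFP- cells from a culture with ND13 N51S, against its label; the label was kept, and the calls without the array are given below. The inserted fusion itself was not seen: Hoxd13 read 6.19 to 11.2 in the GFP control and 4.03 to 21.9 with ND13(N51S), below background on every array, and Nup98 349 to 524 and 338 to 500. Where their probes lie relative to the fusion is not known here.

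The adjusted test called 6 genes. Mycn, Rbm5 and Atrx fell with ND13(N51S), whereas Ctsh, Ctss and Jun rose. In numbers, 3 of 22626 probe sets (0.0133%) were called higher and 3 (0.0133%) lower, a call being an adjusted p below 0.05 with a change of at least 1.5-fold in limma's moderated test with the replicate number as block. Without ND13(N51S) replicate 2 there were 15 higher (0.0663%) and 7 lower (0.0309%), and all 6 genes remained among them. The calls rested on the pairing: without the replicate block limma called 0 higher and 0 lower (1732 probe sets at an unadjusted p below 0.05, against 2565 with it). They also moved with single arrays. Without GFP control replicate 1 there were 1 higher (Olfm1) and 1 lower (Mycn, the only one of the 6 to remain), 1 and 1 when replicate 2 of the control was left out, and 0 and 0 when its replicate 3 was. Leaving out replicate 1 of the mutant gave 1 and 2, and leaving out its replicate 3 gave 32 and 92.

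Mycn, the N-Myc transcription factor that drives growth and proliferation of progenitors, had the smallest p. Its signal was 8754, 8828 and 12180 on the GFP control arrays and 3322, 3351 and 4000 on the ND13(N51S) arrays. The groups did not overlap, and the difference was nearly the same in the 3 pairs (-1.40, -1.40 and -1.61 on the log2 scale). The fitted log2 change was -1.47 ± 0.14 (SE; limma adjusted p = 0.0048) and -1.57 ± 0.14 (0.0015) without replicate 2. This held for the brightest of 3 Mycn probe sets. Another one, with signals of 894 to 1350 and 920 to 2055, gave 0.20 ± 0.26 (0.79).

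Rbm5, an RNA-binding regulator of splicing and apoptosis, read 1124, 635 and 669 in the GFP control and 240, 177 and 213 with ND13(N51S). The groups did not overlap, and the log2 change was -1.91 ± 0.23 (limma adjusted p = 0.024), or -2.03 ± 0.23 (0.012) without replicate 2. Of its 4 probe sets 3 were lower at the unadjusted threshold, that is, an unadjusted p below 0.05 with at least 1.5-fold, and the brightest was not (-0.14). For one of the 3, replicate 2 (11.7) set the difference, since the other mutant arrays (225 and 252) were near the controls (231 to 363). Atrx, a chromatin remodeler that deposits histone H3.3, read 1359, 355 and 624 against 172.5, 77.4 and 268, so that its groups did not overlap either. The log2 change was -2.13 ± 0.29 (limma adjusted p = 0.037), or -1.99 ± 0.30 (0.036) without replicate 2, with 2 of 5 probe sets lower at the unadjusted threshold.

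**Figure D1:**
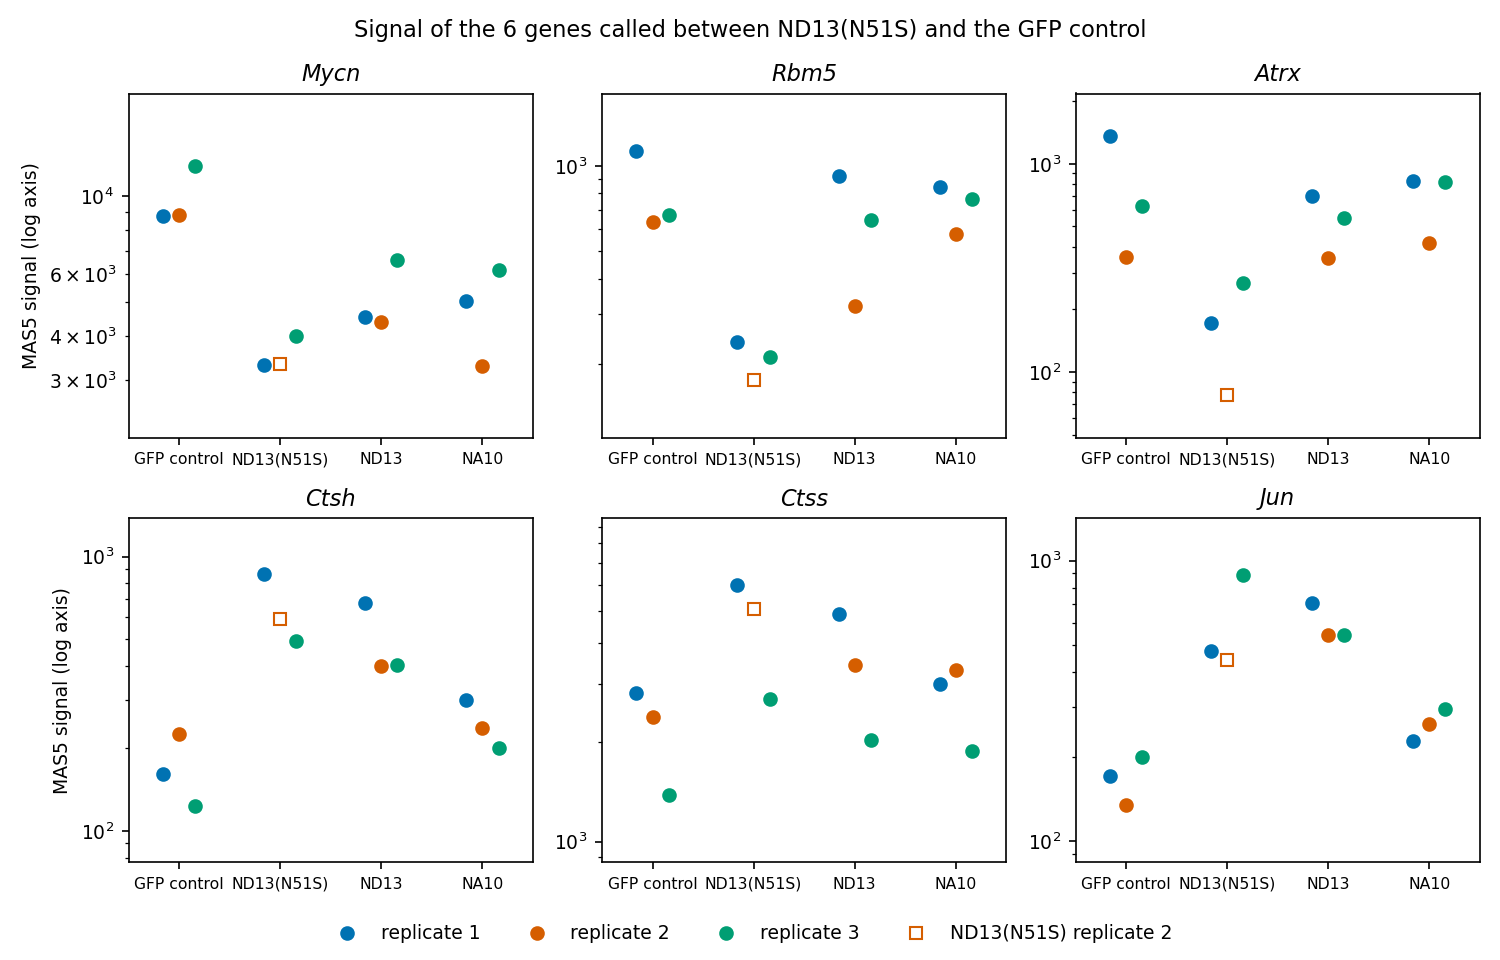
MAS5 signal (log axis) of the 6 called genes on each of the 12 arrays, by group and coloured by replicate number; the open square is ND13(N51S) replicate 2. For Mycn the ND13(N51S) arrays sit at 3322 to 4000 and the GFP control at 8754 to 12180.

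Among the genes that rose, Ctsh and Ctss encode cathepsins H and S, cysteine proteases of the lysosome, of which cathepsin S processes the invariant chain of MHC class II. Ctsh read 161, 225 and 123 in the GFP control and 864.5, 592 and 492 with ND13(N51S). All mutant arrays were above all control arrays, for a log2 change of 1.94 ± 0.24 (limma adjusted p = 0.024), or 2.01 ± 0.26 (0.021) without replicate 2. Ctss read 2829, 2385 and 1387 against 5969, 5064 and 2705. Here the groups overlapped, since the third mutant array was below the first control array, but each pair gave a like difference (1.08, 1.09 and 0.96), and the log2 change was 1.04 ± 0.14 (0.037), or 1.03 ± 0.14 (0.023) without replicate 2.

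Jun, the AP-1 subunit and an immediate early gene, read 170, 134 and 199 in the GFP control and 476, 443 and 886 with ND13(N51S). The groups did not overlap, the log2 change was 1.78 ± 0.24 (limma adjusted p = 0.037), or 1.90 ± 0.26 (0.022) without replicate 2, and both Jun probe sets were higher at the unadjusted threshold. The second probe set read 89.8, 5.2 and 109 against 92.2, 70.3 and 513 (2.01 ± 0.84, 0.41). Its groups overlapped, its first pair hardly differed (0.04), and its lowest control value was below background. The study's qRT-PCR on RNA that was not amplified gave little change of c-Jun with the mutant, unlike its array value, which rose. Jun and Mycn are the called transcription factors that went in opposite directions, and their promoter windows, from 250 bases before to 50 bases after the RefSeq start (GRCm38.p6, both on the minus strand), are shown because the mutation concerns the reading of such sequence by a homeodomain. Capitals mark TAAT, the core read by most homeodomains, and TTTAT, read by posterior HOX proteins such as HOXD13, searched on both strands.
Jun, chr4:95052173-95052472: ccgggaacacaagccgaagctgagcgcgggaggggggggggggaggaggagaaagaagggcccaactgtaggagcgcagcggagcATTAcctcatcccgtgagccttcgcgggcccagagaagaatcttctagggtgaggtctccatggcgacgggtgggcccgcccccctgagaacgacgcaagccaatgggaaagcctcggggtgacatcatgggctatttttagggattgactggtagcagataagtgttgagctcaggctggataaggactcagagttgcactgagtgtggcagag
Mycn, chr12:12941787-12942086: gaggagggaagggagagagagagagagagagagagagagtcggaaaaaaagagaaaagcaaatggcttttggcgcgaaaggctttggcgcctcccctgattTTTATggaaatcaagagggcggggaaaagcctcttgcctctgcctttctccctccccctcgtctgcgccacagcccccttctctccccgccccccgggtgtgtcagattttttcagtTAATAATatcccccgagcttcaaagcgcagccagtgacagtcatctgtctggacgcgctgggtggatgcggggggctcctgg
The Jun window held TAAT once, on the opposite strand at -165 to -162, and no TTTAT. The Mycn window held 2 overlapping copies of TAAT between -32 and -26 and TTTAT at -149 to -145. Of all 32851 windows in the table, 58.0% held TAAT and 40.0% TTTAT, so neither presence nor absence sets these promoters apart.

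Without ND13(N51S) replicate 2, 16 further probe sets were called. Those that rose in that fit were Itgb2, the common beta chain of leukocyte integrins, the collagenase Mmp8, the lectin Clec4n (dectin-2), Ms4a6d, Tgfbi, an extracellular protein induced by TGF-beta, and the lysosomal proteins Psap, Lgmn and Plbd1, with Oga, Aplp2 and Sorl1. Itgb2 read 638, 636 and 630 in the GFP control and 1661, 1066 and 1386 with ND13(N51S), a log2 change of 1.09 ± 0.16 (limma adjusted p = 0.055) with all arrays and 1.19 ± 0.16 (0.021) without replicate 2. For Psap and Mmp8 the array in doubt decided the call. Psap read 1827, 1450 and 1869 against 4855, 1504 and 3724, and its log2 change went from 0.82 (0.23) to 1.16 (0.022). Mmp8 read 991, 813 and 629 against 3011, 784 and 1309, with 0.87 (0.29) and 1.32 (0.021). In both, replicate 2 was the only mutant array at the level of the controls.

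Lower in that fit were Malat1, a long nuclear RNA, Pafah1b1 (Lis1), a regulator of the dynein motor, Gtpbp4, a GTPase of ribosome assembly, and a probe set without a gene name. Malat1 read 2933, 1877 and 1504 in the GFP control and 238, 74.0 and 530 with ND13(N51S), so the highest mutant array was well under the lowest control. The log2 change was -3.27 ± 0.51 (limma adjusted p = 0.085) and -2.66 ± 0.41 (0.036) without replicate 2. A second Malat1 probe set was lower at the unadjusted threshold and the other 3 were not (-0.10, -0.38 and 0.94). Olfm1, a secreted olfactomedin, was higher on all mutant arrays (318, 220 and 231) than in the GFP control (131, 17.3 and 28.6), of which only the first was above its array's background, so that its fitted log2 change of 2.65 (0.055) is not a measured size. It was called without GFP control replicate 1 (limma adjusted p = 0.0066), when no control value above background was left.

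In further lower genes of small p the probe sets disagreed. Xrn2, a nuclear exonuclease that ends transcription, Smarca5, an ATPase of chromatin remodeling, Cbx5, the heterochromatin protein HP1 alpha, Ddx6, an RNA helicase of messenger storage, and Cab39, a scaffold of the kinase LKB1, gave log2 changes between -1.14 and -1.83 with adjusted p between 0.077 and 0.097. Without replicate 2 they gave -0.99 to -1.69, and none was called. In each of these 5 genes exactly 1 probe set was lower at the unadjusted threshold, and the others ranged from -0.44 to 1.28. For Cbx5 that probe set read 471, 189 and 323 against 111, 67.8 and 86.1. The brightest Cbx5 probe set read 865, 1191 and 1935 against 978, 1206 and 1794, with no difference to be seen (0.03 ± 0.15). A change of these genes thus refers to the probe set named and not to all transcripts of the gene.

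**Figure D2:**
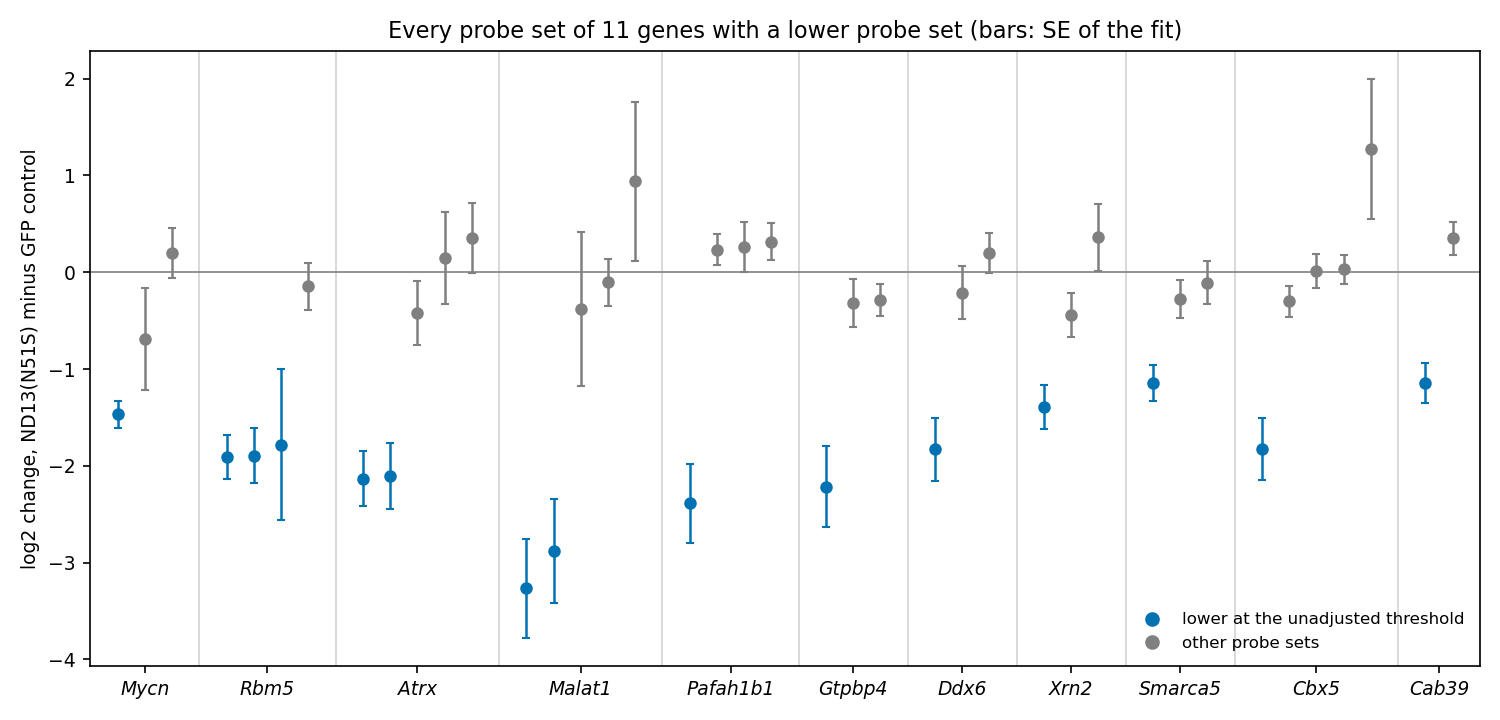
Log2 change (ND13(N51S) minus GFP control, bars are the SE of the fit) of every probe set of 11 genes; blue points were lower at the unadjusted threshold and grey points were not. For Pafah1b1 1 of 4 probe sets lies at -2.39 and the other 3 between 0.23 and 0.32.

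At the unadjusted threshold 1160 probe sets (5.13%) were higher and 763 (3.37%) lower, and without replicate 2 1111 (4.91%) and 512 (2.26%). Of these, 684 higher and 332 lower probe sets passed in both fits. All 3 mutant arrays were above all 3 control arrays for 1924 probe sets (8.5%) and below them for 781 (3.45%). The excess of higher over lower ones depended on the scaling: the 60.3% higher at the unadjusted threshold became 38.6% when each array was centred on its median and 48.3% after quantile normalization, since the median probe set was 0.07 higher with the mutant on the deposited scale and -0.04 when centred. Counted once per gene, by the probe set of highest mean, 706 of 12393 genes (5.7%) were higher and 273 (2.2%) lower at the unadjusted threshold, with a median log2 change of 0.09. The gene lists below are described beside these shares. A gene can be on several lists, so the lists are not independent of each other. Of the called genes, Ctss was on the monocyte, class II and lysosomal lists and Ctsh on the lysosomal list. Jun was on those of immediate early factors and qRT-PCR genes, and Mycn on those of the Myc and Max network and stem cell transcription factors. Other members were not called between mutant and control with all arrays, and "higher" or "lower" means at the unadjusted threshold.

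Most members were higher among the immediate early transcription factors, genes that cells switch on within minutes of a growth factor or stress signal without new protein synthesis. Of 23 measured, 13 were higher (56.5%), 0 were lower, and the median log2 change was 0.85. Egr1, a zinc finger factor, read 335, 300 and 212 in the GFP control and 1016, 1784 and 1084 with ND13(N51S), a log2 change of 2.17 ± 0.36 (limma adjusted p = 0.077). Klf4, a Krüppel-like factor of monocytes and stem cells, read 52.1, 69.5 and 74.2 against 285, 301 and 176 (1.94 ± 0.35). Fosb, an AP-1 partner of Jun, read 50.8, 65.7 and 77.3 against 170, 192 and 382 (1.86 ± 0.38). In all 3 genes the groups were apart, which for Egr1 was a condition of its being named. Without replicate 2 they gave 1.85, 1.77 and 1.97. Of the other members, Jund and Nr4a3 had log2 changes of -0.09 and -0.06, and -0.14 and -0.06 without replicate 2. Junb and Ier2 gave -0.17 and -0.65 with that array and 0.32 and 0.26 without it.

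The feedback inhibitors are genes that the same signals induce and that end them. Of 26, 9 were higher (34.6%) and 0 lower, with a median of 0.42. Zfp36 (tristetraprolin), which destabilizes early messengers, read 336, 249 and 506 against 730, 910 and 1329 (1.46 ± 0.24, limma adjusted p = 0.077). Dusp1, a phosphatase of MAP kinases, read 264, 212 and 774 against 756, 1207 and 2426, where the lowest mutant array was just under the highest control, and had a log2 change of 1.89 ± 0.36 (0.11). Without replicate 2 they gave 1.38 and 1.78. Btg1, Btg2 and Rgs1 gave log2 changes of 1.09, 0.96 and 1.23, and 0.82, 0.97 and 1.18 without it. Without replicate 2 the counts were 11 higher and 0 lower for the transcription factors and 7 higher and 1 lower for the inhibitors, with medians of 0.87 and 0.36. Heat shock proteins and chaperones (17 genes) had 0 higher and 0 lower, and the unfolded protein response (25 genes) 0 and 2 (1 and 1 without replicate 2).

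**Figure D3:**
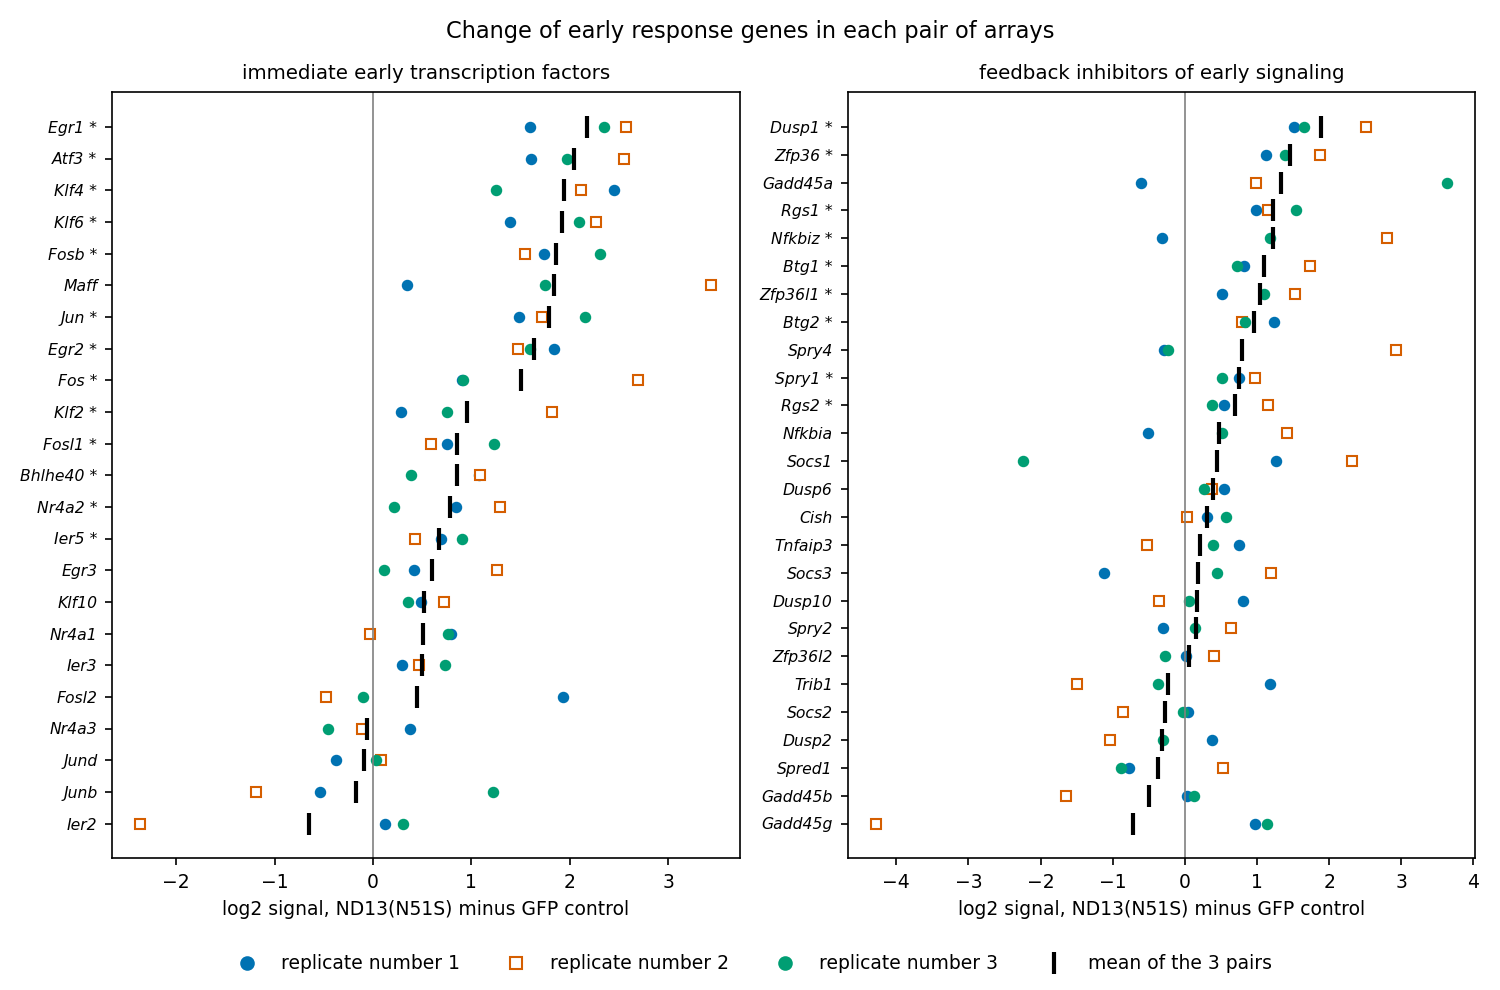
Difference in log2 signal between the ND13(N51S) and the GFP control array of each replicate number, for 23 immediate early transcription factors and 26 feedback inhibitors; black bars are the mean of the 3 pairs, open squares pair 2, and asterisks mark genes past the unadjusted threshold. The 13 marked transcription factors are above 0 in all 3 pairs.

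Markers of monocytes and macrophages come from cells that differentiate along the myeloid line. Of 27 measured, 13 were higher (48.1%) and 1 was lower (3.70%), with a median of 0.94 (0.96, with 15 and 0, without replicate 2). Lgals3 (galectin-3) read 1651, 2084 and 1370 in the GFP control and 8483, 3943 and 2701 with ND13(N51S), a log2 change of 1.42 ± 0.25 (limma adjusted p = 0.093). Csf1r, the receptor for M-CSF, read 3042, 1201 and 1418 against 5826, 3177 and 2777 (1.10 ± 0.20), with the groups overlapping at the first control array. Mrc1, the mannose receptor, read 91.2, 148 and 99.9 against 1419, 436 and 299 (2.37 ± 0.40). Without replicate 2 the 3 genes gave 1.55, 1.07 and 2.54. The summed signal of the list was 13888 to 24145 in the GFP control and 25091 to 47338 with ND13(N51S), highest in replicate 1. Such markers come from more cells of a type or more RNA per cell, which these bulk data cannot tell apart.

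MHC class II genes, which antigen-presenting cells use to display peptides, had 6 of 10 members higher (60.0%), 0 lower, and a median of 1.08 (5 and 0, with 0.98, without replicate 2). They varied most among the pairs (medians 2.02, 0.72 and 0.27). H2-Eb1, a class II beta chain, read 577, 822 and 537 against 4147, 2624 and 603. Cd74, the invariant chain, read 644, 414 and 563 against 4258, 1843 and 476. In both genes replicate 3 of the mutant was at the level of the controls, and the adjusted p was 0.19 and 0.27 (0.24 and 0.37 without replicate 2). Lysosomal enzymes and membrane proteins had 7 of 41 higher (17.1%) and 0 lower, and 11 and 0 without replicate 2.

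Mast cell and basophil markers had 5 of 18 higher (27.8%) and 0 lower, and 6 and 0 without replicate 2. Cpa3, the carboxypeptidase of mast cell granules, read 994, 1483 and 980 against 2174, 4438 and 2706 (1.39 ± 0.23, limma adjusted p = 0.077), and Fcer1a, a chain of the IgE receptor, 173, 523 and 115 against 597, 1186 and 669 (1.83 ± 0.32). Both had the groups apart, which for Cpa3 was a condition of its being named. Kit, the stem cell factor receptor that mast cells keep, gave 0.01 ± 0.23. Without replicate 2 Cpa3 and Fcer1a gave 1.21 and 1.89. Among megakaryocyte and platelet markers 6 of 16 were higher (37.5%) and 0 lower, and all 16 had a positive log2 change. Without replicate 2 the counts were also 6 and 0. Pf4 (platelet factor 4) read 3406, 3429 and 2017 against 3876, 6531 and 5369 (0.84 ± 0.19, or 0.74 ± 0.20 without replicate 2). Summed signals were 11530 to 14268 against 14603 to 20468 for the mast cell list and 6711 to 8860 against 9983 to 14220 for the megakaryocyte list, with no overlap in either.

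Chemokines, cytokines and their receptors had 9 of 41 higher (22.0%) and 1 lower (2.44%), and 8 and 1 without replicate 2. Il1r2, the decoy receptor for interleukin-1, read 129, 251 and 286 against 818, 1582 and 455 (2.00 ± 0.40, limma adjusted p = 0.12), or 1.64 ± 0.40 (0.17) without replicate 2. The chemokines Ccl3, Ccl6 and Ccl22 gave 1.62, 1.22 and 2.15, and 1.54, 1.55 and 1.91 without it. The list of stem cell surface markers and receptors had 6 of 30 higher (20.0%) and 1 lower (3.33%), or 7 and 0 without replicate 2. The higher ones were not all particular to stem cells: they included Csf1r and Il7r, also on the monocyte and the lymphoid list. Prnp and Csf2rb2, a receptor chain for interleukin-3, were others. Csf2rb2 read 292, 442 and 353 against 975, 2299 and 830.5 (1.78 ± 0.33, and 1.29 ± 0.24 without replicate 2, whose value was the highest). Its paralog Csf2rb gave 0.51 ± 0.32. Fibroblast and matrix genes, which virus producer cells could also contribute, had 6 of 35 higher (17.1%) and 1 lower (2.86%), with and without replicate 2, Fn1 (fibronectin) among them with 214, 696 and 267 against 732, 988 and 486. Their summed signal was 12099 to 14731 in the GFP control and 15594 to 19375 with ND13(N51S). The part of such cells in the results was not tested.

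Kit, Cd34, Flt3 and Procr, markers of progenitors and stem cells, served to check the label, beside the list of 30 above. Kit read 792 to 1096 in the GFP control and 709 to 1300 with ND13(N51S), and Cd34 3340 to 4553 and 2452 to 4142, with log2 changes of 0.01 and -0.22. Flt3 and Procr, a receptor of early progenitors and a marker of stem cells, gave 0.12 and 0.37, and none of the 4 passed the unadjusted threshold. Ly6a, which encodes Sca-1, and Ly6g had no probe set assigned to that gene alone. Of the lineage antigens removed in the sort, Cd4 read 9.98 to 19.5 and 13.7 to 28.6, under background, and Cd5, Cd8a and Cd8b1 were at most 61.6, 144 and 66.0. The brighter Cd8a probe set was above background on every array, with 74.9, 43.2 and 47.0 in the GFP control and 95.6, 77.8 and 144 with ND13(N51S). Its groups did not overlap, but the log2 change of 0.94 did not pass the unadjusted threshold. Ptprc, the pan-leukocyte antigen whose B220 form was sorted against, read 4457 to 5143 and 4286 to 6898. Neutrophil granule proteins had 1 of 20 higher (5.00%) and 0 lower, erythroid markers 4 of 26 (15.4%) and 0, markers of B cells and lymphoid progenitors 3 of 20 (15.0%) and 0, T and NK cell markers 3 of 22 (13.6%) and 0, and eosinophil markers 0 and 1 of 7. Without replicate 2 these counts were 3 and 0, 4 and 1, 2 and 0, 2 and 0, and 0 and 1.

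Lists with more lower than higher members were fewer. Interferon-stimulated genes, which cells use against viruses, had 0 of 37 higher and 7 lower (18.9%) with a median of -0.35 (0 and 7, with -0.30, without replicate 2). Oas2, a sensor of double-stranded RNA, read 709, 159 and 322 in the GFP control and 168, 34.5 and 186 with ND13(N51S), and Bst2 (tetherin) 605, 225 and 175 against 216, 87.3 and 82.6. In both genes GFP control replicate 1 was the highest array. The list's median was -0.68, 0.39 and -0.18 in the 3 pairs and 0.003 without GFP control replicate 1, so its direction rested on that array.

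Genes of DNA replication and S phase had 0 of 41 higher and 5 lower (12.2%), with a median of -0.18 (pairs -0.05, -0.27 and -0.20). Cdc6, which loads the replicative helicase, read 1499, 1314 and 1087 against 808, 716 and 634 (-0.85 ± 0.19), and Ccne2 (cyclin E2) 648, 555 and 503 against 310, 435 and 302 (-0.72 ± 0.19), both with the groups apart. Ribosome biogenesis had 1 of 53 higher (1.89%) and 4 lower (7.55%), with a median of -0.20; Bysl and Nolc1, factors of small subunit and nucleolar assembly, gave -0.79 ± 0.19 and -0.63 ± 0.17. Without replicate 2 the counts were 0 and 2 in either list, and Cdc6, Ccne2, Bysl and Nolc1 gave -0.85, -0.89, -0.78 and -0.58. Mitotic genes had 1 of 44 higher (2.27%) and 2 lower (4.55%), and inhibitors of cyclin-dependent kinases with the D cyclins 4 of 18 higher (22.2%) and 0 lower, Cdkn2c (p18) among them with 353, 258 and 387 against 592, 500 and 573. Without replicate 2 the counts were 2 and 1 for mitotic genes and 2 and 0 for the inhibitors.

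HOX genes and their cofactors had few members past the threshold. In the HoxA cluster 0 of 9 genes were higher and 1 lower (11.1%), Hoxa7, with signals of 78.2, 157 and 39.6 against 61.9, 10.2 and 40.9, where replicate 2 alone was low and without which the count was 0 and 0. Hoxa9, which marks primitive cells, read 3800, 3653 and 3928 in the GFP control and 3534, 4960 and 3785 with ND13(N51S) (0.09 ± 0.13), so the groups overlapped. The HoxB cluster (9 genes) and the TALE cofactors (10 genes) had 0 higher and 0 lower. Meis1, a partner of HOX proteins in leukemia, was above the controls on all mutant arrays (1224, 1724 and 1019 against 921, 887 and 944), by 0.49 ± 0.18 (0.29 ± 0.16 without replicate 2), which is less than 1.5-fold. Pbx2 and Pbx3, which bind DNA together with HOX proteins, gave -0.21 and -0.12.

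A list of 74 genes was chosen in the study for being higher with both intact fusions than in the GFP control and not with the mutant. Of these, 67 were measured here, and 13 were higher with the mutant than in the GFP control (19.4%) and 3 lower (4.48%), with a median of 0.32 (11 and 1, with 0.28, without replicate 2). The median was 0.589, 0.176 and 0.045 in the 3 pairs. Without GFP control replicate 1 it was 0.102, against 0.074 for all genes, so most of the shift rested on that array. The list was chosen on these samples and is no independent evidence of its direction. The study chose it on GC-RMA values, with a required difference from the mutant, whereas MAS5 signals and limma were used here. The counts are therefore not on like values. Prnp, the prion protein, read 455, 803 and 1070 against 952, 1861 and 1593 (0.95 ± 0.24). Gsn (gelsolin) read 88.5, 253 and 96.7 against 416.5, 961 and 280 (1.90 ± 0.54). Without replicate 2 both were smaller (0.71 and 1.42). Of 14 measured genes matched by symbol to those of the qRT-PCR assays, 4 were higher (28.6%) and 1 lower (7.14%), and 2 and 0 without replicate 2. The symbol Csf2rb was matched to the probe set of that gene (0.51), whereas the methods give for this assay the transcript of its paralog Csf2rb2 (1.78), which was higher and is not in the count.

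**Figure D4:**
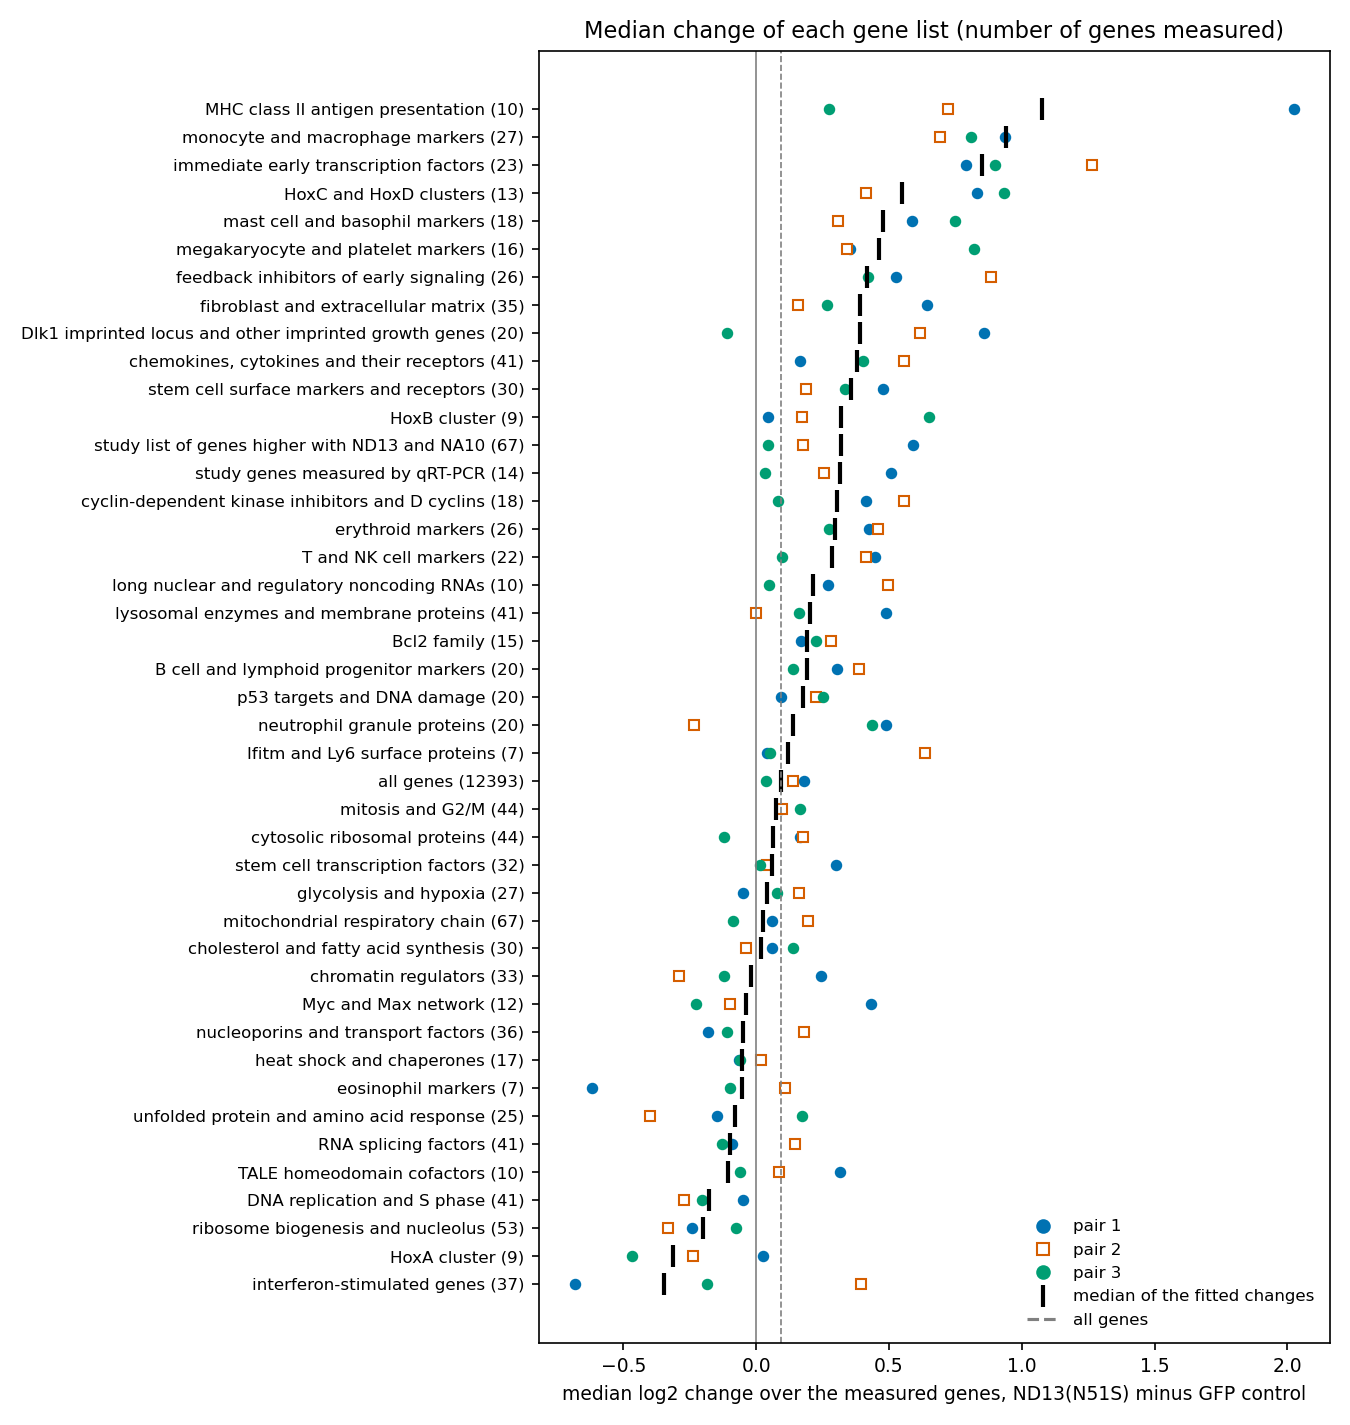
Median log2 change (ND13(N51S) minus GFP control) over the measured genes of each list, with the number measured in brackets; black bars are the median of the fitted changes, points the medians in each pair, and the dashed line the median of all 12393 genes (0.09). Medians reach 1.08 for MHC class II and -0.35 for interferon-stimulated genes, where the pairs lie on both sides of 0.

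Median centring lowered the median of all genes from 0.09 to -0.02 and the list medians by a like amount. The medians of the immediate early factors (0.74), feedback inhibitors (0.31), monocyte markers (0.83), class II genes (0.96), mast cell markers (0.37), megakaryocyte markers (0.35), DNA replication (-0.29) and ribosome biogenesis (-0.31) kept their sign. The other lists described the Myc and Max network (1 higher and 1 lower of 12), p53 targets (2 and 2 of 20), Ifitm and Ly6 proteins (1 and 0 of 7), HoxC and HoxD (1 and 0 of 13, 5 of them below background on all 6 arrays), imprinted genes (2 and 0 of 20), stem cell transcription factors (2 and 2 of 32), the Bcl2 family (1 and 0 of 15), ribosomal proteins (2 and 1 of 44), the respiratory chain (0 and 1 of 67), glycolysis and hypoxia (0 and 0 of 27), lipid synthesis (2 and 1 of 30), nucleoporins (0 and 1 of 36), chromatin regulators (1 and 1 of 33), long noncoding RNAs (1 and 1 of 10) and splicing factors (1 and 3 of 41).

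To see where the mutant stood apart from the intact fusions, ND13 and NA10 were each compared with ND13(N51S) in the same fit. For ND13 14 probe sets were called higher than with the mutant (0.0619%) and 4 lower (0.0177%), and for NA10 9 higher (0.0398%) and 1 lower (0.00442%). The calls numbered 24 probe sets in all, 4 of them shared, and all 18 and 10 remained without ND13(N51S) replicate 2, when the totals were 38 and 43. Both comparisons use the same 3 mutant arrays, so a value peculiar to those arrays enters both.

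Part of these calls were transcripts low with the mutant against every other group. Malat1 read 4078, 1670 and 4282 with ND13 and 2386, 3446 and 4051 with NA10, which exceeded the mutant (74.0 to 530) by 3.87 ± 0.51 and 3.93 ± 0.51 on the log2 scale (limma adjusted p = 0.040 and 0.037). The GFP control read 1504 to 2933. Ddx6 read 1453, 1069 and 1889 with ND13 and 1904, 1385 and 1955 with NA10 against 266, 141 and 753 with the mutant (adjusted p = 0.040 and 0.025). Rbm5 was higher than with the mutant in both ND13 (1.47 ± 0.23, 0.048) and NA10 (1.78 ± 0.23, 0.025), Pafah1b1 in ND13 (2.62 ± 0.41, 0.049) and Atrx in NA10 (2.10 ± 0.29, 0.028). As described above, not all probe sets of these genes were lower with the mutant than in the GFP control.

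Other calls were of several kinds. Dlk1, a membrane protein of the Notch ligand family that restrains differentiation, read 124, 123 and 588 in the GFP control, 747, 400 and 836 with ND13(N51S) and 13180, 8490 and 16890 with ND13, a difference of 4.29 ± 0.32 between ND13 and the mutant (limma adjusted p = 0.00011). Meg3, a noncoding RNA of the same imprinted locus, followed with 3.21 ± 0.21 (8.4e-05). Dlk1 and Meg3 were not called between mutant and control (adjusted p = 0.12 and 0.17). Outside the rule for named genes, and chosen after their values were seen, ND13 was also higher than the mutant for the chemokine receptor Ccr1, Ifitm2, Pura and Tecpr1 and lower for the lipoprotein receptor Vldlr, the cytotoxic granule protein Nkg7, Cnn3 and Rpl39l, and NA10 was higher for the germ cell helicase Ddx4 and the deacetylase Sirt2 and lower for the kinase Mark2. By the fitted changes, the GFP control lay between the mutant and the intact fusion for Ifitm2, Pura, Tecpr1, Vldlr, Cnn3, Rpl39l, Sirt2 and Mark2. It did not for Ccr1, Nkg7 and Ddx4. Of 2 called probe sets without a gene name, one was higher in both comparisons (3.69 ± 0.45, 0.014, for ND13 and 4.60 ± 0.45, 0.0073, for NA10), with 628 to 1249 in ND13, 975 to 2176 in NA10, 56.2 to 66.6 with the mutant and 6.87 to 52.5 in the GFP control, and the other was higher in NA10 (1.33 ± 0.14, 0.012). Vldlr read 1287, 1927 and 513 with the mutant, 750, 1086 and 369 in the GFP control and 432, 423 and 208 with ND13 (-1.69 ± 0.20, 0.014).

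Mycn, Ctsh, Ctss and Jun, called between mutant and control, were not called between mutant and intact fusions. Against the GFP control, Mycn was also called lower with ND13 (-0.95, limma adjusted p = 0.02) and NA10 (-1.07, 0.022). Jun and Ctsh were called higher with ND13 (1.84, 0.013, and 1.54, 0.026) but not with NA10 (0.65, 0.69, and 0.56, 0.74). Ctss was called with neither (0.62, 0.12, and 0.33, 0.73). These comparisons use the same GFP control arrays, so a value peculiar to those arrays enters each. ND13 minus mutant was 0.05 ± 0.24 for Jun (limma adjusted p = 0.95), -0.19 ± 0.36 for Egr1 (0.87), -0.40 ± 0.24 for Ctsh (0.54), -0.42 ± 0.14 for Ctss (0.30) and 0.52 ± 0.14 for Mycn (0.21). NA10 minus mutant was -1.14 ± 0.24 for Jun (0.14) and -1.38 ± 0.24 for Ctsh (0.084). With 3 arrays a group, a p above the threshold leaves differences of these sizes undecided. List medians against the GFP control were, for ND13 and NA10, 1.04 and 0.65 for immediate early factors and 0.54 and 0.40 for feedback inhibitors. Monocyte markers gave 0.66 and 0.33, class II genes 0.93 and 0.43, mast cell markers 0.10 and 0.18 and megakaryocyte markers 0.43 and 0.46. Interferon-stimulated genes gave -0.29 and -0.34, DNA replication -0.17 and -0.16 and ribosome biogenesis -0.205 and -0.16.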

How the data were processed

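RNA of sorted cells was amplified and hybridized to 12 MOE430A oligonucleotide arrays, 3 in each of 4 groups. The authors scaled each array with MAS5 and deposited the signal intensity of every probe set, which is linear and not detection-filtered; MAS5 subtracts mismatch signal, so low values are noisy. Of 22690 probe sets, 64 controls were left out and 22626 tested; 20380 had 1 gene in GEO's platform annotation, 691 several and 1555 none, and 20349 were matched by gene number to current symbols.

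The log2 intensity (floor 0.01, reached by no value) was fitted with limma 3.58.1 in R 4.3.3 on all 12 arrays, by group with the replicate number as block, with eBayes (trend, robust) and Benjamini-Hochberg adjustment. The arrays of each group are numbered as replicates, without a statement that a number marks 1 experiment shared by the groups, and the study's own t-test did not use the number. The deviations of same-numbered mutant and control arrays from their group means correlated at 0.031 to 0.100 over all probe sets, and at 0.106 to 0.362 over those above the median mean. For same-numbered arrays of all groups the ranges were 0.031 to 0.156 and 0.106 to 0.596. The pairing of mutant and control is thus weakly borne out, and the fit without it is given beside the counts. The labels do not say whether donors were pooled or separate, so p-values measure the spread between these arrays. With 3 against 3 arrays an exact test could not go below p = 0.1, and none was used. The number of arrays limits the precision.

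Genes were named when called with or without ND13(N51S) replicate 2 or without GFP control replicate 1, by smallest p, by up to 4 per gene list, or from fixed names. Those of smallest p were taken only from probe sets with no overlap of the groups and the same direction in every pair. Their brighter group also had to be above background. For genes named in this way the separation of the groups was thus set by the choice and is no support. The comparison, lists and tests were chosen with earlier results of these data known. Fits were tested on simulated data with independent noise of the same spread on every array. The simulation held no replicate effect and no array like ND13(N51S) replicate 2, so it cannot show how the calls depend on these. Alternatives changed the block, arrays, filter, pseudocount (32), scaling, probe set choice and test, including the methods' t-test, and left out arrays. Python 3.11.15, pandas 2.3.3 and matplotlib 3.10.9 made tables and figures. Of the named genes, 111 of 140 had a promoter window in the RefSeq table.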

Additional observations from a re-analysis of the deposited data

Results flagged for a closer look

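The 3'-to-5' signal ratios of control transcripts, which were not used in the comparison, stood out on 2 arrays of the mutant. Gapdh had a ratio of 48.9 in ND13(N51S) replicate 2 (1.90 to 2.71 on the other 11 arrays) and beta-actin one of 9.09 (1.72 to 2.38). Tfrc had a ratio of 17.8 in ND13(N51S) replicate 3 (1.37 to 4.29 on the other arrays), where the 5' probe set read 7.1, below that array's background of 47.8. The part of these ratios in the results was not tested.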

How the results depend on the processing

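The count of called probe sets, 3 higher and 3 lower, was small enough that most alternatives moved it. The replicate numbers were taken as pairs, and without the replicate block 0 and 0 were called, with 988 and 560 at the unadjusted threshold. The fit on the 6 arrays of the comparison alone, with the block, gave 0 and 0 (914 and 456), plain eBayes 0 and 0 (1333 and 625), and the methods' t-test 0 and 0 after adjustment (720 and 203, with 1262 probe sets at an unadjusted p below 0.05). A filter on dim probe sets gave 8 and 4 (504 and 480), a pseudocount of 32 gave 6 and 4 (1118 and 700), array weights 2 and 2 (926 and 471), 1 probe set per gene 8 and 1 (718 and 275, of fewer tests), quantile normalization 3 and 4 (894 and 957) and median centring 2 and 5 (789 and 1255).

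Leaving out 1 array or 1 pair gave 0 to 32 called higher and 0 to 92 called lower, with 1020 to 1262 higher and 505 to 1336 lower at the unadjusted threshold. The most calls came without ND13(N51S) replicate 3. Of settings chosen after seeing the data, leaving out ND13(N51S) replicate 2 with median centring gave 6 and 11 (608 and 1126). Leaving out that array without centring and without the replicate block gave 0 and 0 (957 and 376). Leaving out both that array and GFP control replicate 1, with the block and without centring, gave 1 and 1 (1052 and 481). The cause of these changes was not tested. Over the 22 alternatives Mycn stayed called in 15, Ctsh in 11, Jun in 9 and Ctss in 6, and over 21 Rbm5 stayed called in 10 and Atrx in 8, all with the same direction. Of 3092 values of named genes 3026 kept their direction. Klrd1, an NK cell receptor (log2 change 1.23), read -0.13 without GFP control replicate 1 and ND13(N51S) replicate 2, and 0.62 to 2.02 over the settings that leave out 1 array or pair. MAS5 signals near background limit what fold changes of dim genes can show.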
